A study of Mus musculus with 6 samples.

Results

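The small leucine-rich proteoglycans are secreted matrix proteins built around a chain of leucine-rich repeats, and 10 of their genes are described here: Kera, Lum, Dcn, Bgn, Fmod, Ogn, Omd, Prelp, Aspn and Epyc. They were chosen by name, as the rows of the deposited expression table that carry these symbols. All 10 were found among the 17794 genes of the table, and all 10 passed the filter on low counts that left 13838 genes for testing. Whole mouse corneas were sequenced as total RNA from a model of experimental dry eye, in which benzalkonium chloride, a detergent preservative, had been used to damage the ocular surface. After the damage the vehicle group (3 libraries) was given the vehicle and the luteolin group (3 libraries) was given luteolin, a plant flavone, for 10 days. Both groups carry the damage, and undamaged corneas were not analysed here. The sources used here give no strain, age, sex, dose or route. Nor do they say if each library is another animal, and the p-values then speak only of the spread among these samples, which may be technical.

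In the corneal stroma these proteins bind collagen fibrils and limit their thickness and spacing, on which transparency depends. Lumican, keratocan and osteoglycin carry keratan sulfate chains in the cornea, and decorin and biglycan carry chondroitin or dermatan sulfate. They are made mainly by keratocytes, the resident cells of the stroma. Several also bind growth factors or receptors, as decorin and biglycan do with TGF-beta.

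Library totals ran from 16084855 to 16469699 estimated counts, and no library repeated another of its group (chi-square per degree of freedom of the pairs, 6.30 to 30.3). The tissue label was borne out by Krt12, the keratin of corneal epithelium, which stood at 14915 ± 2152 CPM (counts scaled to library size) in the vehicle group and at 27197 ± 299 CPM in the luteolin group (SD, n = 3). The summed levels of stromal genes varied between libraries of the same group, and the amount of stromal RNA itself was not measured. Summed over the 10 proteoglycan genes, vehicle 1, 2 and 3 held 2452, 5417 and 1579 TPM (transcript levels scaled by gene length and library size), and luteolin 1, 2 and 3 held 2287, 2250 and 1071 TPM. The same libraries held 1598, 2002 and 1164 TPM and 708, 974 and 407 TPM of 12 stromal collagen genes. Vehicle 2 was the highest vehicle library for all 10 proteoglycan genes (41.5% of all tested genes had that order), vehicle 3 was the lowest for 9 (31.0% of all tested genes) and luteolin 3 was the lowest luteolin library for 9 (32.9% of all tested genes). In whole corneas, fewer cells of a type and less RNA per cell cannot be told apart.

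**Figure D1:**
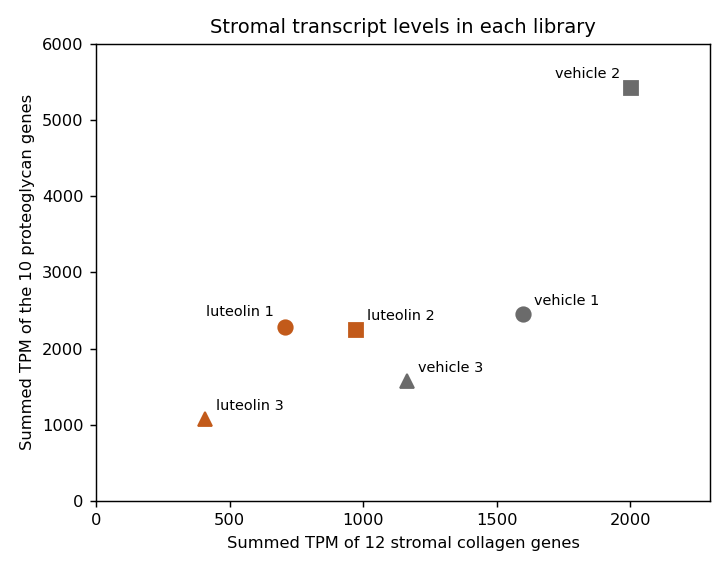
Summed TPM of the 10 proteoglycan genes against summed TPM of 12 stromal collagen genes, 1 point per library (grey vehicle, orange luteolin; circle, square and triangle for replicates 1, 2 and 3). Vehicle 2 stands highest on both axes (5417 and 2002 TPM) and luteolin 3 lowest on both (1071 and 407 TPM).

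The comparison asked how these genes differed in damaged corneas after luteolin. Asporin and epiphycan transcripts (Aspn and Epyc) were far lower with luteolin, biglycan, osteomodulin, Prelp and osteoglycin were lower by a smaller amount, and lumican, decorin, fibromodulin and keratocan did not pass the test. In edgeR's quasi-likelihood test with Benjamini-Hochberg adjustment over all tested genes at a threshold of 0.05, 6 of the 10 were lower (30.4% of all tested genes were) and 0 were higher (28.5% of all tested genes were), while 58.9% of all tested genes changed in either direction. At an unadjusted p under 0.05, 7 were lower and 0 higher, beside 4539 lower and 4311 higher of all 13838 tested genes. DESeq2 called 5 lower and 0 higher, beside 4150 lower and 3787 higher of 15692 genes. The median log2 fold change of the 10 was -1.37, beside -0.017 over all genes tested. With library sizes alone as the scale, the all-gene median was -0.13, 7 of the 10 were lower, and calls over all genes split into 5153 lower and 2943 higher, against 4208 and 3949 with the scaling used (TMM); with upper quartile factors the split was 5004 and 3083 and 6 were lower. The libraries of the groups did not overlap for the same 6 (33.7% of all tested genes did not overlap and were lower, and 33.8% did not overlap and were higher). The calls of Aspn, Bgn and Epyc held without any 1 library. Only those 3 of the 6 were called without vehicle 2, luteolin 1, luteolin 2 or luteolin 3. Without vehicle 2 Kera was also called, as higher. With 1 library left out, 3581 to 4406 of 13952 to 14136 tested genes were lower and 3192 to 4087 higher.

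**Figure D2:**
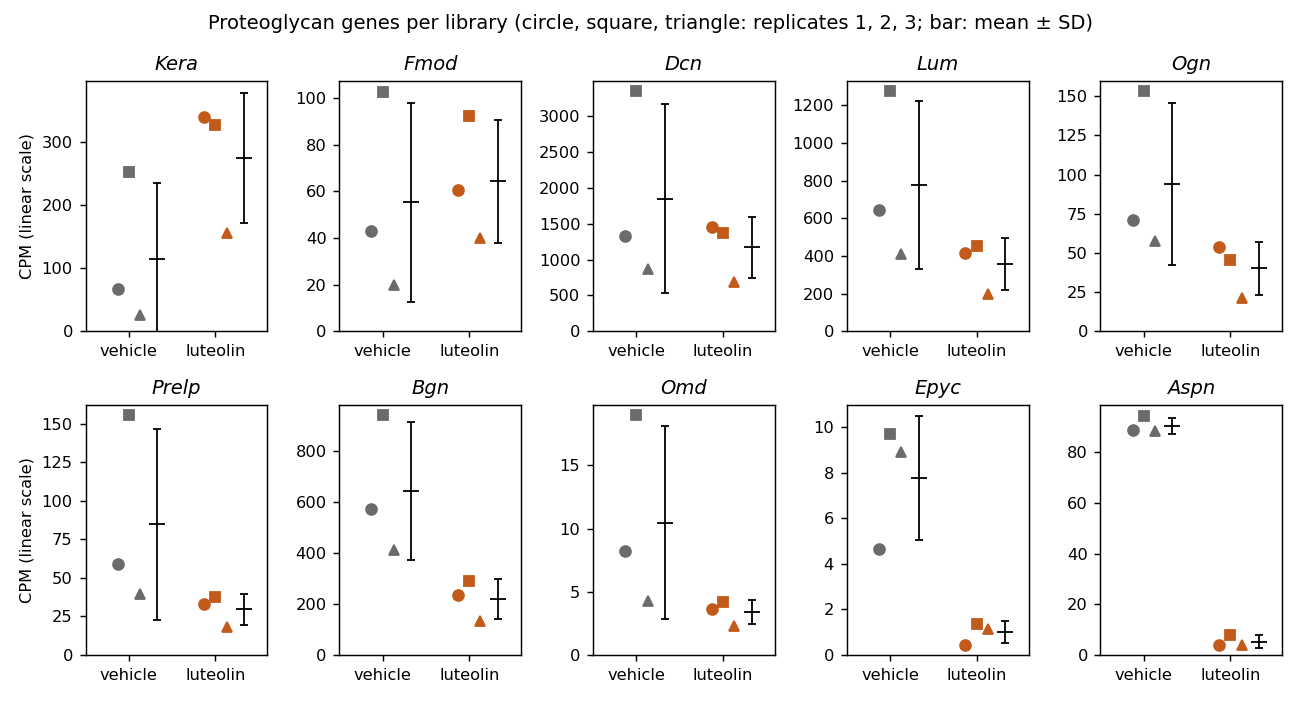
CPM of each of the 10 genes (linear axis from 0) in the vehicle (grey) and luteolin (orange) libraries, with circle, square and triangle for replicates 1, 2 and 3 and a black bar for the mean ± SD (n = 3), ordered by log2 fold change. For Kera with vehicle the SD (120 CPM) is larger than the mean (114 CPM), so its bar is cut off at 0, while for Aspn the vehicle libraries lie between 88.4 and 94.3 CPM and the luteolin libraries between 3.80 and 8.06 CPM.

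Class I of the family holds decorin, biglycan and asporin. Aspn (gene ID 66695) encodes asporin, which binds collagen and TGF-beta and lacks the usual glycosaminoglycan attachment site. It stood at 88.8, 94.3 and 88.4 CPM in vehicle 1, 2 and 3 and at 3.997, 8.06 and 3.80 CPM in luteolin 1, 2 and 3. The lowest vehicle library was thus far above the highest luteolin library. Its log2 fold change was -4.10 (SE 0.245, edgeR adjusted p = 4.90e-05), 17.1-fold lower with luteolin and between -4.55 and -3.91 without any 1 library. It was the steadiest of the 10 in the vehicle group: its highest library was 1.07 times its lowest, where the other 9 genes differed by 2.08 times (Epyc) to 9.97 times (Kera).

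Bgn (gene ID 12111) encodes biglycan, which binds collagen and, once free of the matrix, Toll-like receptors. It stood at 573, 941 and 413 CPM in vehicle 1, 2 and 3 and at 233, 289 and 133 CPM in luteolin 1, 2 and 3. Every luteolin library was below every vehicle library, and vehicle 2 stood above the other two vehicle libraries. The gene was 2.94-fold lower with luteolin (log2 fold change -1.56, SE 0.363, edgeR adjusted p = 0.00830). With the collagen list as a covariate its log2 fold change was -0.0094 and did not pass (edgeR adjusted p = 0.971, 0.000282 to 0.971 over the alternatives).

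Dcn (gene ID 13179) encodes decorin, the most abundant transcript of the family here. It stood at 1332, 3349 and 872 CPM in vehicle 1, 2 and 3 and at 1455, 1375 and 680 CPM in luteolin 1, 2 and 3. The groups overlapped, since luteolin 1 and luteolin 2 were above vehicle 1 and vehicle 3. Its log2 fold change, -0.66 with an SE of 0.502, did not pass (edgeR adjusted p = 0.288), and without vehicle 2 it was 0.087.

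Class II holds keratocan, lumican, fibromodulin, Prelp and osteomodulin. Kera (gene ID 16545) encodes keratocan, a keratan sulfate proteoglycan used as a marker of keratocytes. It stood at 66.2, 251 and 25.2 CPM in vehicle 1, 2 and 3 and at 340, 327 and 155 CPM in luteolin 1, 2 and 3. Luteolin 1 and luteolin 2 were above every vehicle library, and luteolin 3 was above vehicle 1 and vehicle 3 but below vehicle 2. Its log2 fold change was 1.26 (SE 0.741, edgeR adjusted p = 0.179) and did not pass, and without vehicle 2 it was 2.58 with an edgeR adjusted p of 0.00331 (0.000115 to 0.374 over the alternatives).

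Lum (gene ID 17022) encodes lumican, whose loss in mice is known to cloud the cornea. It stood at 646, 1276 and 408 CPM in vehicle 1, 2 and 3 and at 417, 453 and 199 CPM in luteolin 1, 2 and 3. The groups overlapped through vehicle 3, which was below luteolin 1 and luteolin 2. Its log2 fold change, -1.12 with an SE of 0.451, did not pass (edgeR adjusted p = 0.0648), and without vehicle 3 it was -1.44 and passed (edgeR adjusted p = 0.0206, 0.00324 to 0.337 over the alternatives). Without vehicle 2 it was -0.56 and did not pass (edgeR adjusted p = 0.192).

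Fmod (gene ID 14264) encodes fibromodulin, which binds type I collagen beside lumican. It stood at 43.2, 103 and 19.9 CPM in vehicle 1, 2 and 3 and at 60.5, 92.1 and 40.0 CPM in luteolin 1, 2 and 3. The luteolin libraries lay within the range of the vehicle libraries. Its log2 fold change, 0.22 with an SE of 0.555, did not pass (edgeR adjusted p = 0.757), and it was 1.02 without vehicle 2, -0.19 without vehicle 3 and -0.15 without luteolin 2.

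Prelp (gene ID 116847) encodes a basic member that binds heparan sulfate and collagen. It stood at 59.2, 155 and 39.8 CPM in vehicle 1, 2 and 3 and at 32.8, 37.6 and 18.3 CPM in luteolin 1, 2 and 3. The groups did not overlap, although vehicle 3 and luteolin 2 were close. The gene was 2.87-fold lower with luteolin (log2 fold change -1.52, SE 0.512, edgeR adjusted p = 0.0356); without vehicle 2 the log2 fold change was -0.74 and did not pass (edgeR adjusted p = 0.0592, 0.00476 to 0.980 over the alternatives).

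Omd (gene ID 27047) encodes osteomodulin, a keratan sulfate proteoglycan better known from bone. It stood at 8.23, 19.0 and 4.23 CPM in vehicle 1, 2 and 3 and at 3.61, 4.16 and 2.32 CPM in luteolin 1, 2 and 3. Vehicle 3 and luteolin 2 were nearly level, and the groups did not overlap. The gene was 3.11-fold lower with luteolin (log2 fold change -1.64, SE 0.533, edgeR adjusted p = 0.0313), and without vehicle 2 the log2 fold change was -0.89 and did not pass (edgeR adjusted p = 0.0627, 0.00266 to 0.747 over the alternatives).

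Class III is represented by osteoglycin and epiphycan. Epyc (gene ID 13516) encodes epiphycan, a dermatan sulfate proteoglycan best known from cartilage. It stood at 4.67, 9.72 and 8.94 CPM in vehicle 1, 2 and 3 and at 0.451, 1.36 and 1.16 CPM in luteolin 1, 2 and 3, which in luteolin 1 were 7 counts. Every luteolin library was below every vehicle library. The gene was 7.79-fold lower with luteolin (log2 fold change -2.96, SE 0.433, edgeR adjusted p = 0.00108).

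Ogn (gene ID 18295) encodes osteoglycin, also called mimecan, the third keratan sulfate proteoglycan of the cornea. It stood at 71.1, 153 and 57.8 CPM in vehicle 1, 2 and 3 and at 54.0, 45.2 and 21.2 CPM in luteolin 1, 2 and 3. The groups did not overlap, but vehicle 3 was close to luteolin 1. The gene was 2.34-fold lower with luteolin (log2 fold change -1.23, SE 0.442, edgeR adjusted p = 0.0450), and without vehicle 2 the log2 fold change was -0.68 and did not pass (edgeR adjusted p = 0.110, 0.0108 to 0.816 over the alternatives).

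**Figure D3:**
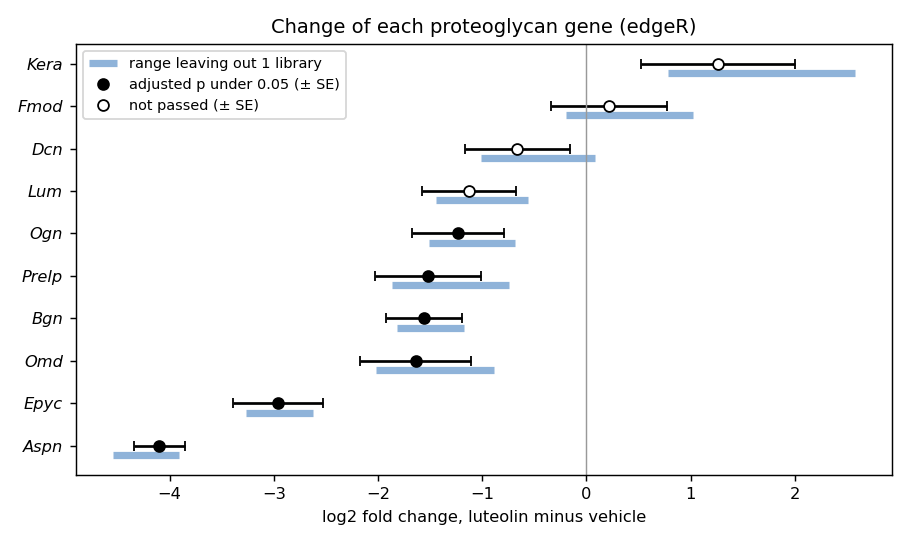
Log2 fold change of each of the 10 genes, luteolin minus vehicle, from edgeR (points ± SE, filled where the adjusted p was under 0.05), with a blue bar for the range of values when 1 library at a time is left out. The points run from -4.10 for Aspn to 1.26 for Kera, and the bars of Dcn and Fmod cross 0.

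Genes of the family lie in groups along the genome. In the RefSeq annotation of GRCm38, a later build than the mm9 named by the submitters' processing notes, Dcn, Lum, Kera and Epyc follow each other on chromosome 10, Aspn, Omd and Ogn on chromosome 13, and Prelp and Fmod on chromosome 1, while Bgn lies apart on chromosome X. On chromosome 10 the log2 fold changes of neighbours were -0.66 for Dcn, -1.12 for Lum, 1.26 for Kera and -2.96 for Epyc, of which only Epyc passed. All 3 genes of the chromosome 13 group passed as lower, with -4.10 for Aspn, -1.64 for Omd and -1.23 for Ogn. So did Ecm2, a related leucine-rich repeat gene next to Aspn, which went from 13.9 ± 5.96 to 3.86 ± 0.875 CPM (SD, n = 3). The gene Cenpp, of a centromere protein, overlaps Aspn, Omd and Ogn in that annotation. It went from 8.85 ± 2.58 to 3.88 ± 0.231 CPM (SD, n = 3), and because the use of strand in counting is not given, reads of overlapping genes may not be told apart. On chromosome 1, Prelp passed as lower and Fmod did not pass.

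The promoters of the 3 neighbours on chromosome 13 that were lower together, and that of Kera, whose value pointed the other way, are shown from RefSeq (GRCm38.p6, 250 bases before to 50 after the start of transcription, all on the + strand, 5′ to 3′). Capitals mark matches on either strand to 4 motifs: TATAAA, the core of the TATA box; CCAAT, the CCAAT box; TGANTCA, the AP-1 site; and CAGAC, the SMAD-binding core. Matches may overlap.
Aspn, chr13:49544193-49544492: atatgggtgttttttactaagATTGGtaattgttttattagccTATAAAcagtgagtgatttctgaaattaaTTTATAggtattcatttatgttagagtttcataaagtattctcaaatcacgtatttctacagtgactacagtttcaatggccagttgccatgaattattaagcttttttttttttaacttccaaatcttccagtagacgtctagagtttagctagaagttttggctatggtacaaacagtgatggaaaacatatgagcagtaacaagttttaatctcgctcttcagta
Omd, chr13:49582212-49582511: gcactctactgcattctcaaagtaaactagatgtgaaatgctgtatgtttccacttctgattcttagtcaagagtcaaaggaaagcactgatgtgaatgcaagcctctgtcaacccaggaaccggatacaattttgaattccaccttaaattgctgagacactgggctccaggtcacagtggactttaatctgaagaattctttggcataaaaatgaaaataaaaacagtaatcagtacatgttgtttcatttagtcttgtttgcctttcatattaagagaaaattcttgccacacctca
Ogn, chr13:49607765-49608064: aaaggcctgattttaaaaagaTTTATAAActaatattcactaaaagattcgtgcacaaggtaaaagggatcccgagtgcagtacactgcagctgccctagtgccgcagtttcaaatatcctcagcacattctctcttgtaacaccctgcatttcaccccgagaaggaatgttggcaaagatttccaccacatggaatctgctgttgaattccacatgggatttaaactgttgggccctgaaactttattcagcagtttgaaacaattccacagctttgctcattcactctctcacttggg
Kera, chr10:97606955-97607254: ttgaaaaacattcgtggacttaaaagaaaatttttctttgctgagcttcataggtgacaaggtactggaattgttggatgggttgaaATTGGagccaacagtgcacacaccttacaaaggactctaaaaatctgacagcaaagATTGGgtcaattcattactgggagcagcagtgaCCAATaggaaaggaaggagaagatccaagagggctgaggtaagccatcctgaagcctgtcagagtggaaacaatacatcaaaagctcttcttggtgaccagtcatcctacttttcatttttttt
Aspn and Ogn each held 2 matches to TATAAA, which 13.6% of all 32851 promoters in the table hold at least once and 2.36% in 2 or more places, and those of Ogn overlap each other. Kera held 3 matches to CCAAT and Aspn held 1; 37.4% of all promoters hold at least 1 and 3.37% at least 3. None of these 4 promoters held TGANTCA (7.81% of all promoters) or CAGAC (49.6% of all promoters), and Omd held none of the 4 motifs. Of the family's promoters not shown, Prelp held 3 matches to CAGAC and Fmod 2, while Bgn and Epyc held none. Over all promoters, 3.90% hold at least 3 and 16.2% at least 2. These matches are descriptions of the letters in this window.

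The order of the transcript levels, compared by TPM, differed between the groups. With vehicle it ran Dcn (1743 ± 1245 TPM), Lum (647 ± 376), Bgn (446 ± 190), Kera (103 ± 108), Aspn (64.9 ± 2.84), Ogn (60.3 ± 33.4), Prelp (37.8 ± 27.7), Fmod (28.85 ± 22.4), Omd (9.92 ± 7.26) and Epyc (7.94 ± 2.70 TPM, SD, n = 3). With luteolin it ran Dcn (1096 ± 406 TPM), Lum (296 ± 116), Kera (245 ± 93.7), Bgn (151 ± 55.2), Fmod (33.4 ± 13.6), Ogn (25.8 ± 11.1), Prelp (13.2 ± 4.49), Aspn (3.79 ± 1.71), Omd (3.16 ± 0.896) and Epyc (1.02 ± 0.492 TPM, SD, n = 3). Neighbours in this order held it in all 3 libraries of the group except Kera and Aspn (1 of 3), Aspn and Ogn (2 of 3) and Omd and Epyc (2 of 3) with vehicle, and Fmod and Ogn (2 of 3) and Aspn and Omd (2 of 3) with luteolin. By mean TPM over all genes in the table, Aspn moved from rank 2010 to rank 10272 and Kera from rank 1274 to rank 487.

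Within a library, ratios between these genes do not depend on how much stroma was sampled if the genes come from the same cells. That condition was not tested. Of the summed TPM of the 10 genes, Kera made up 2.46%, 4.17% and 1.40% (vehicle 1, 2 and 3) and 13.4%, 12.9% and 12.8% (luteolin 1, 2 and 3). Its lowest luteolin share was thus above its highest vehicle share, including that of vehicle 2, in which the summed level was highest. Aspn made up 2.64%, 1.25% and 3.94% in the vehicle libraries and 0.127%, 0.256% and 0.252% in the luteolin libraries, in the same order. Its own level was nearly even in vehicle 1, 2 and 3 (64.66, 67.85 and 62.19 TPM). The vehicle shares of Aspn therefore differed mainly through the sum, and Aspn did not vary with the other genes there. Fmod also held a larger share with luteolin (1.82% ± 0.378) than with vehicle (0.854% ± 0.185, SD, n = 3). Shares of Lum (21.0% ± 1.29 and 15.8% ± 0.795) and Bgn (15.4% ± 2.99 and 8.18% ± 0.899, SD, n = 3, vehicle and luteolin) were smaller with luteolin. Decorin made up most of the sum in both groups, 53.7% ± 4.003 with vehicle and 58.7% ± 1.67 with luteolin (SD, n = 3), and its shares overlapped.

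Against their own sum, 7 of the 10 genes were lower in every luteolin library (7.19% of all tested genes, set against the same sum) and 2 were higher (15.4% of all tested genes). The 10 genes are parts of this sum and nearly all other tested genes are not. The 2 percentages are therefore not a like background, and no excess is read from them. Each of these 9 genes had an exact two-sided permutation p of 0.1, the smallest that 3 against 3 allows, or 0.111 adjusted over the 10 genes. None can thus pass a threshold of 0.05. For Dcn the exact permutation p was 0.2. Shares sum to a fixed total, so a larger share of Kera lowers the others. Ratios of pairs are free of that limit: per unit of Lum TPM, vehicle 1, 2 and 3 held 0.110, 0.212 and 0.0665 of Kera, and luteolin 1, 2 and 3 held 0.877, 0.776 and 0.841, a pair chosen after its values were seen. On the log2 scale Kera over Lum was higher by 2.84 with luteolin, with an SD of 0.839 among vehicle and 0.0901 among luteolin libraries. Of the 45 pairs, 34 did not overlap between the groups, not far above the share of all pairs of tested genes (66.7%). The 45 pairs are drawn from 10 genes and are not independent. All 9 pairs with Kera and all 9 with Aspn were among the 34. The 11 pairs that overlapped were the 3 among Ogn, Omd and Prelp, the 6 of these genes with Lum or Bgn, and Epyc with Bgn and with Prelp; Omd over Prelp is an example (0.294, 0.260 and 0.226 with vehicle, 0.231, 0.235 and 0.268 with luteolin).

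**Figure D4:**
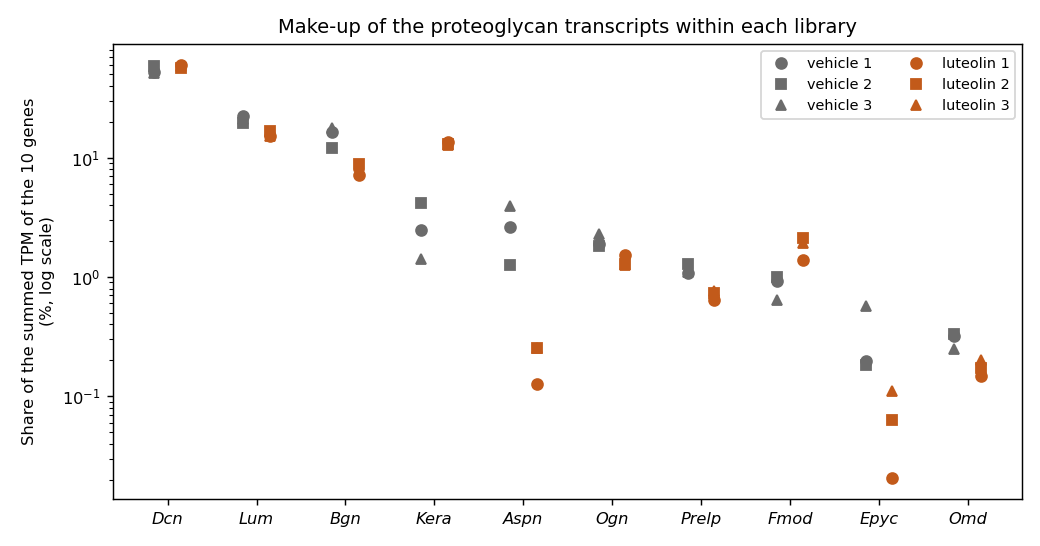
Share of each gene in the summed TPM of the 10 genes, in percent on a log axis, for the vehicle (grey) and luteolin (orange) libraries, with circle, square and triangle for replicates 1, 2 and 3. Kera lies at 1.40% to 4.17% with vehicle and 12.8% to 13.4% with luteolin, and Aspn at 1.25% to 3.94% and 0.127% to 0.256%.

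Set against the stromal collagens of the same library, the summed proteoglycans were 1.53, 2.71 and 1.36 times the summed TPM of 12 collagen genes in vehicle 1, 2 and 3 and 3.23, 2.31 and 2.63 times in luteolin 1, 2 and 3. The log2 difference of 0.60 was within the spread between libraries (exact two-sided permutation p = 0.3), and vehicle 2 lay inside the luteolin range. With the mean of log2(TPM + 0.1) over each list in place of the sums, the difference was 0.046 (exact two-sided permutation p = 1). Per 1000 TPM of collagen, Kera stood at 37.7, 113 and 19.0 TPM with vehicle and at 434, 299 and 338 TPM with luteolin. Kera and Fmod were higher and Bgn, Aspn and Epyc lower than every library of the other group on this measure (63.2% of all tested genes did not overlap and were higher against the collagen sum, and 6.08% did not overlap and were lower), each with the smallest exact permutation p of 0.1. Relative to collagen, Aspn was 7.70-fold and Epyc 3.47-fold lower, and Bgn was 1.23-fold lower. The collagens themselves differed between groups, so the ratios carry that difference: 5 of 12 were lower (30.4% of all tested genes), 0 were higher (0 also at an unadjusted p under 0.05, edgeR) and 7 did not pass. Col3a1, the type III collagen gene, went from 1277 ± 249 to 99.4 ± 45.1 CPM and Col14a1 from 77.9 ± 11.5 to 13.2 ± 1.82 CPM (SD, n = 3). Col5a3 (log2 fold change -1.35) and Col5a2 (-1.27) of type V collagen were also lower, while Col1a1, type I collagen, was at 1154 ± 337 and 626 ± 308 CPM (SD, n = 3) and did not pass.

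With the mean log2 CPM of the collagens as a covariate in edgeR, 2 of the 10 were lower (Aspn, log2 fold change -3.53, and Epyc, -2.76) and 2 were higher (Kera, 4.53, and Fmod, 2.62), and the median was 0.62. With the mean of 12 keratocyte markers outside the family as the covariate, 3 were lower (Aspn, Bgn and Epyc). Another 3 were higher (Kera, 3.74, Fmod, 1.90, and Dcn, 0.84), and the median was -0.031. Over all 13838 tested genes, 2187 were lower and 1976 higher with the collagens, and 3840 and 3445 with the keratocyte markers. Both covariates differed between the groups without overlap (collagens 7.58 to 8.42 with vehicle and 6.20 to 7.23 with luteolin, keratocyte markers 5.37 to 6.61 and 4.63 to 5.32, mean log2 CPM), so these fits extrapolate between groups. Aspn and Epyc were called lower under all 19 alternatives.

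The counts of the related lists stand beside 30.4% lower and 28.5% higher among all tested genes. Of 18 genes of collagen processing and cross-linking, 14 were lower, 0 higher (0 also at an unadjusted p under 0.05, edgeR) and 4 did not pass (median log2 fold change -1.06, all tested genes -0.017). Bmp1, the protease that trims procollagen and the propeptides of biglycan and osteoglycin, went from 71.9 ± 3.11 to 37.3 ± 3.42 CPM (SD, n = 3), and the lysyl hydroxylases Plod2 and Plod3 and the prolyl hydroxylase subunit P4ha2 had log2 fold changes of -2.17, -1.04 and -1.08. The related leucine-rich repeat genes Podn (-1.98), Ecm2 (-1.85) and Chad (-1.52) were lower, 3 of 5 tested, and Tsku (-0.18) and Chadl (-0.20) did not pass.

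Enzymes that build the sugar chains were counted in the same way. Of 11 genes of keratan sulfate synthesis 8 were lower and 0 higher (0 also at an unadjusted p under 0.05, edgeR), with a median of -0.52: the sulfotransferase Chst2 had a log2 fold change of -1.79, Chst1, which sulfates galactose, -2.26, the core fucosyltransferase Fut8 -0.84 and the sialyltransferase St3gal1 -1.38. Chst5, a sulfotransferase of corneal keratan sulfate, did not pass (vehicle 10.8 ± 7.82, luteolin 15.5 ± 6.70 CPM, SD, n = 3), nor did the chain-extending B3gnt7 (0.20) and B4galt1 (-0.13). Of 19 genes of chondroitin and dermatan sulfate synthesis 9 were lower (all tested genes, 30.4%) and 4 higher (all tested genes, 28.5%), with a median of -0.43, so the number higher was no more than the share over all genes gives. Dse, the epimerase that makes dermatan from chondroitin, went from 25.6 ± 3.02 to 4.82 ± 0.383 CPM (SD, n = 3), and Chst14, which sulfates dermatan, had a log2 fold change of -0.95. The kinase Fam20b (0.61), B3gat3 (0.52) and Csgalnact1 (0.75), which act on the linker or start the chain, and Chst15 (0.53) were higher. In the supply of active sulfate 3 of 7 were higher, among them the synthases Papss1 and Papss2 (0.50 each) and the transporter Slc35b3 (0.34), and 2 were lower, Slc35b2 (-0.19) among them (median 0.17). With 7 genes, both numbers were near the shares over all tested genes (28.5% higher and 30.4% lower). Many of these enzymes are also made outside the stroma, and the part of other cells in these values was not tested.

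Of 13 growth factors and receptors known to bind decorin, biglycan or fibromodulin 7 were lower (all tested genes, 30.4%) and 4 higher (all tested genes, 28.5%), with a median of -0.84; the number higher was near the share over all genes. The ligands Tgfb1 (-1.22) and Tgfb3 (-2.18) and the receptor Tgfbr2 (-1.55) were lower, and the receptor tyrosine kinase Egfr was higher (0.84). Among 14 other proteoglycans 8 were lower and 4 higher, the latter again near the share over all genes (median -1.16), with Hspg2, perlecan (-1.63), Col18a1 (-3.45) and Srgn, serglycin of blood cells (-4.21), lower and Sdc4 (0.88), an epithelial and stromal syndecan, higher.

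**Figure D5:**
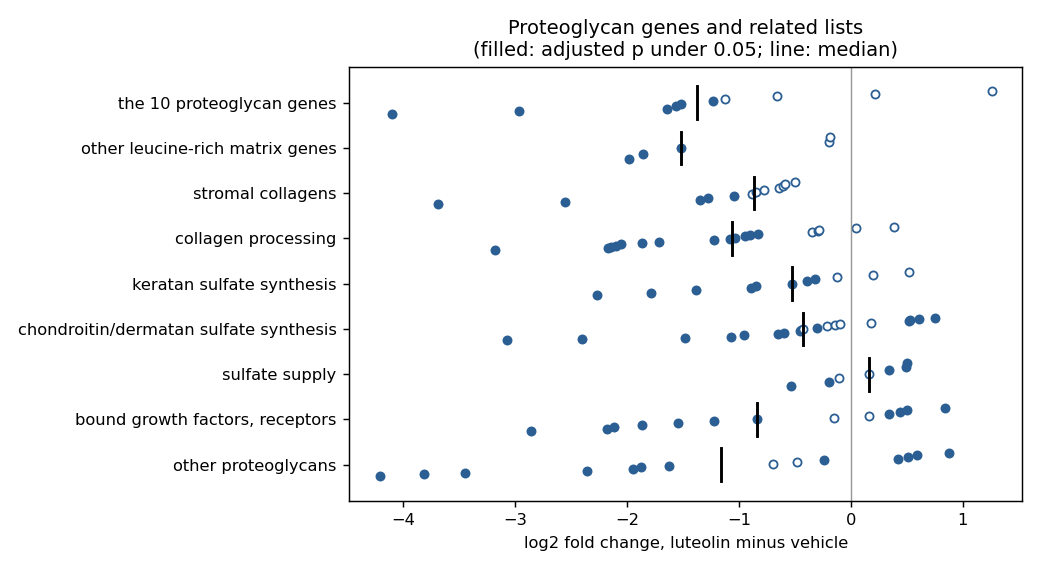
Log2 fold change, luteolin minus vehicle, of every tested gene in the proteoglycan family and 8 related lists (filled where the edgeR adjusted p was under 0.05), with a vertical line at each list's median. The family runs from -4.10 to 1.26 with a median of -1.37, and the list of sulfate supply has a median above 0 (0.17).

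Markers of the cells and tissues in these corneas are given beside the same shares over all tested genes, 30.4% lower and 28.5% higher. Of 12 keratocyte markers outside the family 6 were lower and 2 higher (median -1.38), with summed levels of 1468 to 2571 CPM with vehicle and 1516 to 1898 CPM with luteolin. The largest part of these sums was Gsn, which was higher (797 ± 119 and 975 ± 19.5 CPM, SD, n = 3). The mean log2 CPM of the list did not overlap (5.37 to 6.61 with vehicle and 4.63 to 5.32 with luteolin). Fbln1 (-2.04), Cd34 (-2.08), Cyp1b1 (-1.54) and Pdgfra (-1.34) were lower, while the crystallin-like dehydrogenase Aldh1a1 went from 50.2 ± 35.5 to 268 ± 36.3 CPM (SD, n = 3). Fibroblast and myofibroblast genes were lower in 10 of 11 (median -2.41, summed levels 1912 to 2546 CPM and 731 to 1141 CPM), among them Tnc (-4.94), Postn (-2.53), Fbn1 (-2.80) and Acta2 (-2.41). Genes of sclera and tendon, which also express several of these proteoglycans, were lower in 7 of 10 (median -1.31), with sums of 268 to 712 CPM with vehicle and 148 to 234 CPM with luteolin; Cilp (-2.43), Thbs2 (-2.30), Comp (-1.90) and Fibin (-1.90) had the smallest p. No gene of these 3 lists was at 0 counts in any library.

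Epithelial markers rose in 10 of 12 (median 0.71; Upk1b 1.45, Pax6 0.74, Klf5 0.83, Krt12 0.87), with sums of 47386 to 55834 CPM with vehicle and 81294 to 83672 CPM with luteolin. Blood vessel markers were lower in 9 of 10 (174 to 290 CPM and 41.2 to 48.3 CPM; Tie1 -2.32, Cdh5 -3.18, Vwf -2.75, Plvap -2.98), as were 9 of 10 markers of macrophages and dendritic cells (202 to 360 CPM and 36.8 to 49.7 CPM; Mrc1 -3.40, C1qb -3.18, Fcgr1 -4.73, C1qc -3.01), with no gene of these lists at 0 counts in any library. Of 8 corneal endothelium genes 2 were lower, Tfap2b (-0.83) among them, which is no more than the share over all tested genes (30.4%), with sums of 949 to 1143 CPM and 798 to 955 CPM. Of 7 Schwann cell genes 3 were lower, Pmp22 (-0.93) and Sox10 (-1.74) among them, and 1, Mbp (1.53), was higher (144 to 174 CPM and 248.7 to 253 CPM). Skeletal muscle genes passed in 0 of 10 (0 at an unadjusted p under 0.05, edgeR; Ckm -2.77, Myh1 -2.47), with sums of 126, 208 and 15.1 CPM in vehicle 1, 2 and 3 and 17.9, 17.3 and 93.5 CPM in luteolin 1, 2 and 3, and Ckm, Myh4, Actn3 and Pvalb at 0 in at least 1 library. Melanocyte and uveal genes passed in 0 of 3 tested (0 at an unadjusted p under 0.05, edgeR; Tyrp1 -1.65, Dct -1.02; 4.95 to 32.0 CPM and 7.66 to 12.9 CPM), with Mlana and Oca2 at 0 in at least 1 library. The part of these cells in the proteoglycan values was not tested, beyond the muscle list as a covariate. With that covariate 3 of the 10 proteoglycan genes (Aspn, Bgn and Epyc) and 3740 of 13838 tested genes were lower.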

How the data were processed

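The submitters' processing notes name the genome build mm9, RSEM 1.2.12 and Bowtie2 2.2.5. The sources used here give neither their roles nor the annotation or the use of strand. The deposited estimated counts were, per the file headers, read counts per gene, and the 10 genes described had whole values in every library. The deposited normalized read counts, a signal scaled by 1 factor per library, were not used. FPKM and TPM were also deposited by the authors, and both are scaled by gene length and depth. Of the table's columns, 8 group averages by the authors were not used.

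Counts were rounded and tested with edgeR 4.0.16 (R 4.3.3): filterByExpr (minimum count 10, minimum total 15) kept 13838 of 17794 genes, libraries were scaled by TMM, and luteolin was compared with vehicle over all tested genes without a replicate block. Log2 fold changes are luteolin minus vehicle, their SE was taken from the F statistic (size of the change over root F), and CPM uses TMM factors. The code was tested on simulated data. Shares and ratios of TPM were tested with exact permutation tests over libraries (scipy 1.17.1). The members and lists were chosen with earlier results of these data known. The named genes of other lists are those with the 2 lowest p-values (the 4 lowest in a list with over 3 calls), as well as any a statement turns on. Of these, genes such as Chad, Tsku, Chadl, Col1a1, Chst5, B3gnt7, B4galt1, Chst14, Csgalnact1, Aldh1a1 and Gsn were chosen after their values were seen. Some genes that this rule would name are not reported here. Alternatives were DESeq2 1.42.0, other factors and filters, a robust fit, limma-trend (limma 3.58.1) on log2(FPKM + 1) and log2(FPKM + 0.1), covariates, a replicate block and leaving out each library. RefSeq sequences were found for 8 of the 10 genes.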

Additional observations from a re-analysis of the deposited data

How the results depend on the processing

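The number of the 10 genes called lower was 6. It was 4 to 7 with the other normalizations, filters and models run without a covariate (4 with the robust fit, 5 with DESeq2, 7 with library sizes only). Over all genes, those fits called 4143 to 5153 lower of 12232 to 17759 tested. Of the 10, 2 were lower with the collagens, 3 with the keratocyte markers and 3 with the skeletal muscle list as covariate. With these covariates 2187, 3840 and 3740 of 13838 tested genes were lower. Without 1 library 3 to 7 of the 10 were lower (3 without vehicle 2 or any 1 luteolin library), beside 3581 to 4406 of 13952 to 14136 tested genes. The number called higher was 0, and was 2 with the collagens, 3 with the keratocyte markers, 1 with the replicate number as a block and 0 to 1 without 1 library. Genes called higher over the whole table numbered 1976, 3445, 3790 and 3192 to 4087 in the same fits. The median log2 fold change was -1.65 to -0.71 without 1 library, 0.62 with the collagens and -0.031 with the keratocyte markers. With the collagens as covariate the values of Lum (0.85), Dcn (1.502), Ogn (0.56), Omd (0.58) and Prelp (0.67) turned positive, as did those of Lum (0.15) and Dcn (0.84) with the keratocyte markers and of Dcn without vehicle 2 (0.087, from -1.01 without vehicle 3); that of Fmod turned negative without vehicle 3 (-0.19) and without luteolin 2 (-0.15), and was 1.02 without vehicle 2. Apart from the construction of these fits, the cause was not tested. The log2 ratio of summed proteoglycans to collagens was 0.40 to 0.90 higher with luteolin without 1 library, and 0.046 with means of logs in place of sums. Against the sum of keratocyte markers it was 0.67 lower (-0.67, exact two-sided permutation p = 0.2). That sum holds Gsn and Aldh1a1, which were higher with luteolin, while 6 of the 12 markers were lower. Directions of the shares held under all 70 alternatives run, but most of these could not have turned. FPKM gives nearly the same shares as TPM, and shares that do not overlap keep their direction without any 1 library. Only Dcn, whose shares overlapped, could have turned when 1 library was left out. Over all tested genes, same-numbered libraries did not deviate together (correlations -0.15, 0.027 and 0.012). For 9 of these 10 genes, however, replicate 3 was the lowest library of both groups. The sources do not say if the numbers pair libraries. With the replicate number as a block 7 were lower (Lum added) and 1 higher (Kera, edgeR adjusted p = 0.0189). The SE of Bgn was then 0.0972 (0.363 without the block) and that of Aspn 0.207 (0.245 without it). Over all genes 4144 were lower and 3790 higher with the block, against 4208 and 3949. With 3 libraries per group and a vehicle group that varied up to 9.97 times (Kera), the differences of Dcn and Fmod were within the spread between libraries.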

Other observations

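After each group's mean was subtracted, the log2 CPM of Kera, Lum, Dcn, Bgn, Fmod, Ogn, Omd and Prelp correlated with the mean of the other 9 genes over the 6 libraries at r = 0.904 to 0.994, while Aspn (r = 0.437) and Epyc (r = 0.052) had lower values. These are descriptions over 6 points, each of which shares its library's depth and stromal content.

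The genes outside the family whose deviations were most like the family mean, by the rule for likeness (mean of at least 5 CPM, group means subtracted, 6 libraries), were Fkbp9, a prolyl isomerase of the endoplasmic reticulum (r = 0.999), Itm2c (0.998), Exoc3l2 (0.998), Txlng (0.998), Ppp1r2 (0.998) and Vsir (0.997). These 6 are the highest of 11116 genes compared, each over 6 libraries, so their r values are raised by the selection. Of the 11116 genes, 233 (2.10%) reached r of at least 0.95. Of the 6, Fkbp9 (log2 fold change -0.46, edgeR adjusted p = 0.0392) and Vsir, an immune checkpoint gene (-2.25, edgeR adjusted p = 0.000496), were lower with luteolin and the other 4 did not pass.

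Of genes outside the family that lie beside its members in the RefSeq annotation of GRCm38, Nol8, beside Ogn, was lower by the test (log2 fold change -0.49, edgeR adjusted p = 0.00776), while Btg2, beside Fmod (-0.13), and Haus7, beside Bgn (-0.21), did not pass.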
